A study of Homo sapiens with 4 samples.

Results

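The collagen, laminin and integrin genes were examined for binding of TBX3, a repressor of the T-box family of transcription factors, in the human melanoma line 501mel. The members were all genes whose name in the deposited annotation is that of a numbered collagen chain (such as COL9A1), of a laminin alpha, beta or gamma chain, or of an integrin alpha or beta subunit. This rule takes names only and uses no measured value. It found 82 genes among 19974 protein-coding genes on chromosomes 1 to 22 and X, namely 44 collagens, 12 laminins, 18 integrin alpha and 8 integrin beta subunits, and 43 of them were the nearest gene of at least 1 summit. The other 39 were nearest to no summit, against a background of 58.4% of all protein-coding genes.

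The study profiled TBX3 carrying a 3xHA tag, a short peptide epitope, by chromatin immunoprecipitation and sequencing (ChIP-seq) with the anti-HA antibody 12CA5. It comprised 2 ChIP samples and 2 input samples of the same line, grown in the same medium, and a peak list of each ChIP sample was used here, while the inputs were not analysed here. The labels name no treatment, no clone and no untagged control, and they do not say whether the replicates came from separate cultures. Binding was read as summits, the single base at which a peak is highest, each with a score given by the authors on a scale that the sources used here do not state.

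Collagens are secreted or membrane-bound proteins that form triple helices from alpha chains and give the extracellular matrix its fibrils and sheets. Laminins are cross-shaped trimers of an alpha, a beta and a gamma chain and are the main adhesive proteins of basement membranes. Integrins are dimers of an alpha and a beta subunit that span the cell membrane and tie such matrix proteins to the actin or keratin cytoskeleton. Melanocytes rest on the basement membrane of the epidermis, and the integrins of melanoma cells have been studied for their part in invasion.

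A summit pair that was mutually nearest between the lists and at most 200 bp apart is called a shared region, and each region was given to the gene with the nearest transcription start site (TSS). The lists held 32479 summits in replicate 1 and 40494 in replicate 2, with 22702 shared regions. Read depth is unknown, so the number of summits in a list cannot be set against it. Of the summits, 120 in replicate 1 and 140 in replicate 2 had a member as nearest gene, and these formed 89 shared regions at 35 genes. All 89 pairs named the same gene and the same annotation class in both lists.

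Close to the TSS, laminins had the largest share of bound genes and collagens the smallest. For 13 of the 82 genes, a shared region was found at most 10 kb from the TSS (15.9%, 95% Wilson interval 9.51% to 25.3%), against 10.1% of all protein-coding genes. By family this was 4 of 44 collagens (9.09%, 3.59% to 21.2%), 4 of 12 laminins (33.3%, 13.8% to 60.9%), 3 of 18 integrin alpha subunits (16.7%, 5.84% to 39.2%) and 2 of 8 integrin beta subunits (25%, 7.15% to 59.1%). The laminin interval lay above the background of 10.1%, which is not matched for gene length, and the other family intervals included it. These intervals cover counting error only, and no test of the families was run.

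**Figure D1:**
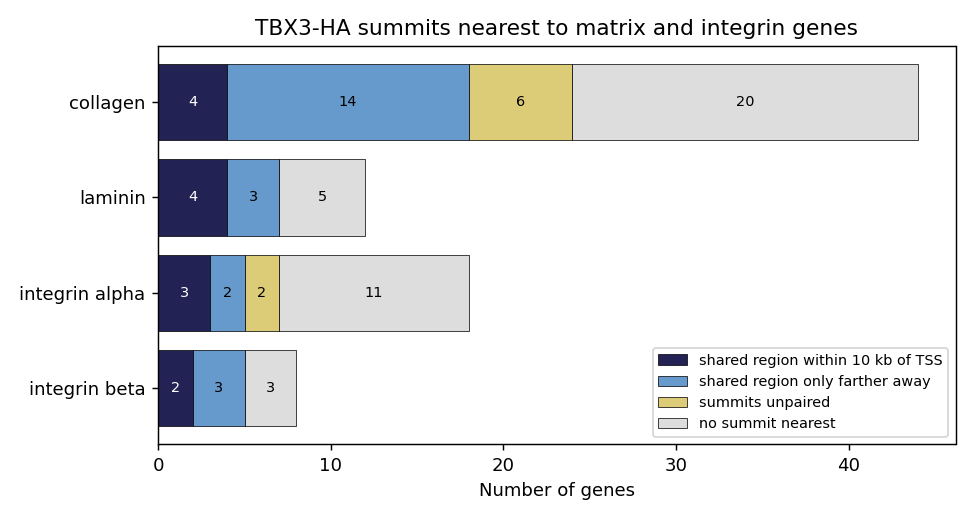
Number of genes in each family (x axis) by the kind of TBX3-HA summits nearest to them; each bar is divided into genes with a shared region at most 10 kb from the TSS, only farther away, with summits that had no partner in the other list, and with no summit. Laminins have 4 of 12 genes in the darkest class and collagens 4 of 44.

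At any distance, 35 of the 82 genes were nearest to a shared region (42.7%, 32.5% to 53.5%), against a background of 28.6%. The members are long genes, with a median span of 90.5 kb against 24.2 kb for all protein-coding genes, and long genes were bound more often. All protein-coding genes were divided by span into 4 classes of equal size. In the longest class, above 65.2 kb, 29 of 51 members (56.9%) had a shared region, against 51.6% of all genes of that class. In the class from 24.2 to 65.2 kb, 6 of 23 members (26.1%) had one, against 28.6%. None of the 8 members between 8.60 and 24.2 kb had one, against 19.7%, and no member was shorter. For regions within 10 kb, the counts were 9 of 51 (17.6%, background 16%) in the longest class and 4 of 23 (17.4%, background 10.4%) in the next. Of the 12 laminins, 9 were in the longest class, and all 4 with a region within 10 kb were among them (44.4%, 18.9% to 73.3%, background 16%). The interval for these 9 genes lay above 16%, but it rests on 4 bound genes and covers counting error only. The 1 laminin of 8.60 to 24.2 kb and the 2 of 24.2 to 65.2 kb had none, against backgrounds of 8.43% and 10.4%. The interval for the 12 laminins together, 13.8% to 60.9%, includes 16%, which is however the background of the longest class only. Also in the longest class, 2 of 29 collagens had a region within 10 kb (6.90%, 1.91% to 22.0%). For integrin alpha subunits it was 2 of 10 (20%, 5.67% to 51.0%) and for beta subunits 1 of 3 (33.3%, 6.15% to 79.2%). The intervals of these other families include 16%. From 24.2 to 65.2 kb the counts were 2 of 12 collagens (16.7%), 1 of 5 alpha (20%) and 1 of 4 beta subunits (25%), against 10.4%.

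**Figure D2:**
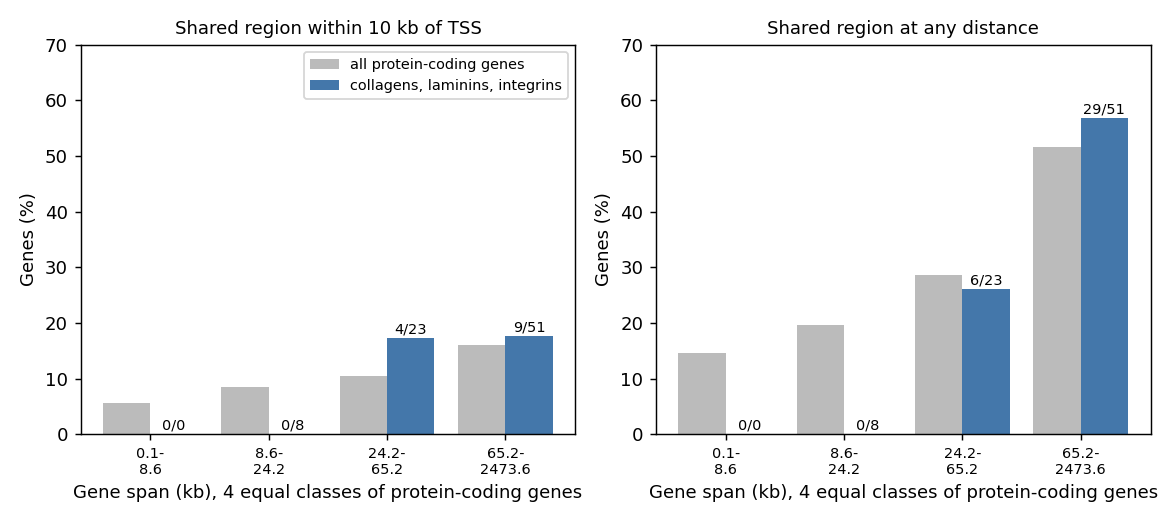
Share of genes (y axis, percent) having a shared region at most 10 kb from the TSS (left) or at any distance (right), by class of gene span in kb (x axis), for all protein-coding genes (grey) and for the collagens, laminins and integrins (blue, with their counts). In the longest class the members stand at 29 of 51 against 51.6% of all genes at any distance, and in the shortest class there are no members.

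Shared summits lay within 500 bp of an annotated TSS at ITGA6, COL9A1 and LAMA4. For ITGA6 and COL9A1 the 250 bases before the most upstream TSS are shown, as the DNA just outside the transcribed span of these genes. They are written 5′ to 3′ on the strand of the gene and come from RefSeq (GRCh38.p14). Capitals mark AGGTGT, the core of the T-box recognition sequence, and CACGTG, an E-box of the kind bound by MITF and related factors, on either strand.
ITGA6: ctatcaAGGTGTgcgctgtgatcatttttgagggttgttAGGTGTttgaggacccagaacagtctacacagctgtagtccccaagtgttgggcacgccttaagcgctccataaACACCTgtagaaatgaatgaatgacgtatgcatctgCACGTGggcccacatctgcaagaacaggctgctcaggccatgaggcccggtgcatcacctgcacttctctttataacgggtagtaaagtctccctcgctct
COL9A1: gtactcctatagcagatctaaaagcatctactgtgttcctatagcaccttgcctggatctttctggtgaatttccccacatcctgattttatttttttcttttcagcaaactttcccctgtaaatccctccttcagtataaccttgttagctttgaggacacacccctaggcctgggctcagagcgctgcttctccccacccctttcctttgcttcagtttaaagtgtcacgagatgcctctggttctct
The windows are chr2:172427086-172427335 on the plus strand and chr6:70303085-70303334 on the minus strand. The ITGA6 window held 3 AGGTGT matches, beginning 244, 211 and 137 bases before the TSS, the last as its reverse complement ACACCT, and a CACGTG 101 bases before it. The COL9A1 window held no match. None of the summits fell in the printed bases: the ITGA6 summits lay 273 and 280 bp after this TSS, and those of COL9A1 323 and 328 bp before theirs. For ITGA6 a second TSS lay closer, 23 and 30 bp before the summits, and its promoter window, chr2:172427336-172427635, held both summits, so that the matches in capitals were not at the summits. That second window was not among the windows found to hold AGGTGT or CACGTG. The LAMA4 summits lay 395 and 460 bp before the TSS of its promoter window, and the annotated gene reached beyond that TSS, to 112254985, so its bases are not printed.

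Across 22140 promoter windows of protein-coding genes, 9.08% held AGGTGT at least once on either strand, 0.547% at least 2 times and 0.0407% (9 windows) at least 3 times. Promoter windows were at hand for 58 of the 82 members, 77 windows in all, and 7 of these held AGGTGT (9.09%). The longer GGTGTGA, which overlaps AGGTGT by 5 bases, was in 4 of the 77 (5.19%, against 2.58% of all windows), at COL11A2, ITGA1 and LAMB3, the last with 2 windows. COL11A2 had an unpaired summit only, and ITGA1 and LAMB3 were nearest to no summit. Of the 12 windows of members with a shared region within 10 kb, GGTGTGA was in 0 and AGGTGT in 2. The full AGGTGTGA was in none of the 77, against 0.741% of all. CATGTG was in 5 (6.49% against 7.59%) and CACGTG only in the printed window of ITGA6 (1.30% against 7.37%). The AP-1 site TGANTCA was in 3 windows (3.90% against 5.36%), and ACAAAG, a core of SOX sites, was in 7 (9.09% against 11.6%). A match describes these letters only, and sequence at the other summits was not analysed here.

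Among collagens, summits near a TSS were at COL9A1, COL5A3, COL14A1 and COL17A1. COL9A1 encodes a chain of type IX collagen, which coats the fibrils of cartilage. Its promoter on chromosome 6 (hg38) had summits at 70303407 in replicate 1 and 70303412 in replicate 2, 324 and 329 bp upstream of the deposited TSS, with peak scores of 71.4 and 154.8. A second, intergenic region lay 9226 bp upstream, with scores of 14.9 and 34.3. COL9A1 was thus the only collagen with more than 1 region within 10 kb, and its promoter region was the highest-scoring of the 5 collagen regions there in both lists.

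COL5A3, a chain of the fibril-forming type V collagen, was bound in intron 1 of 66, 1598 bp after the TSS, with summits at 10008873 and 10008878 on chromosome 19 and scores of 41.4 and 72.2. COL14A1 encodes a collagen that associates with fibrils. On chromosome 8 it had intergenic summits at 120119948 and 120120005, 5160 bp upstream of the TSS, with scores of 14.0 and 17.6. Of 3 more regions 51.7 to 118.1 kb away, the highest-scoring, 51.7 kb upstream, had 29.0 and 48.8. COL17A1 encodes the transmembrane collagen of hemidesmosomes, the anchors of basal keratinocytes. Its only region was in intron 4 of 55 on chromosome 10, with summits at 104077007 and 104076946, 8873 bp after the TSS, and scores of 10.8 and 22.1. Scores of these 2 regions near the TSS of COL14A1 and COL17A1 were below the median of all shared regions in both lists, which was 19.3 in replicate 1 and 29.0 in replicate 2.

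The remaining 14 bound collagens had regions only beyond 10 kb. The strongest of all 89 regions was at COL21A1, a fibril-associated collagen. The COL21A1 summits, 56382093 and 56382122 on chromosome 6, lay in intron 1 of 28, 12035 bp after the TSS, with scores of 454.9 and 632.0, which ranked 62 and 44 in their lists. A second COL21A1 region, nearest to another TSS of the gene 27.3 kb away, scored 14.1 and 15.6. COL25A1, a transmembrane collagen of neurons, had a region in intron 3 of 36, 26.9 kb from the TSS, with scores of 72.7 and 154.8, and a weaker one 35.9 kb away that scored 6.43 and 9.09. COL26A1 had a single region, in intron 1 of 12 and 11.2 kb from the TSS, with scores of 52.4 and 86.4.

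COL15A1, a collagen of basement membrane zones, had 3 regions between 28.1 and 60.0 kb from the TSS. The intergenic one scored 31.0 and 68.3, and those in intron 2 of 41 scored 16.6 and 60.8, and 10.6 and 21.3. COL8A1, a short-chain collagen of vessel walls and the cornea, had 5 regions, the most of any collagen. They lay 20.7 to 313.5 kb from the TSS, 4 of them intergenic, and the highest score was 16.6 in replicate 1 and 22.1 in replicate 2. The other collagens with regions were COL5A2, COL6A6, COL11A1, COL12A1, COL13A1, COL19A1, COL22A1, COL24A1 and COL28A1. Over the 38 collagen regions the median score was 14.5 in replicate 1 and 19.7 in replicate 2, the lowest medians of the 4 families.

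The fibrillar collagens of skin and bone, COL1A1, COL1A2 and COL3A1, were nearest to no summit in either list. The same held for COL4A2, COL4A4, COL4A5, COL4A6, COL5A1, COL6A1, COL6A2, COL6A5, COL7A1, COL8A2, COL9A2, COL9A3, COL16A1, COL18A1, COL20A1, COL23A1 and COL27A1. Another 6 collagens had summits in 1 list only: COL2A1, COL4A1, COL4A3, COL10A1 and COL11A2 in replicate 2 and COL6A3 in replicate 1. The highest-scoring of these was at COL11A2, 812 bp upstream of the TSS, with a score of 77.2 in replicate 2 and the nearest replicate 1 summit 48732 bp away. These lists go by nearest TSS, and shared summits given to other genes lay inside COL4A2, COL4A3, COL4A4 and COL27A1. Elsewhere, an absent summit says only that none was listed at this depth and threshold.

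Laminins had regions at 7 of 12 genes, and their scores were higher than those of collagens, with medians of 24.9 in replicate 1 and 36.4 in replicate 2 over 21 regions. LAMA4, the alpha chain of laminins in vessel and muscle basement membranes, had a single region, at its promoter on chromosome 6. The summits at 112254962 and 112255027 lay 247 and 312 bp upstream of the deposited TSS and scored 81.7 and 114.6. LAMA3 encodes the alpha chain of the laminin that anchors the epidermis, and transcripts of different length start at separate sites. The strongest LAMA3 summits, at 23871575 and 23871612 on chromosome 18, fell in exon 38 of 74 of the long transcript, 1445 bp upstream of the TSS of a short one, and scored 105.7 and 116.7. A further region 10608 bp after this internal TSS scored 45.1 and 101.3, and 3 others lay 83.7 to 90.4 kb after the TSS of the long transcript, where the highest scores were 30.0 and 57.1.

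LAMA1, the alpha chain of early embryonic basement membranes, had 5 regions, all in its introns. The one within 10 kb, in intron 1 of 62 and 6536 bp after the TSS, scored 11.6 and 22.2. The strongest lay in intron 11 of 62, 79.1 kb after the TSS, with summits at 7038724 and 7038703 on chromosome 18 and scores of 211.3 and 306.8. LAMB1 encodes the most widespread beta chain. It had regions 7601 bp after the TSS in intron 4 of 33 (scores of 15.8 and 9.86) and 9412 bp after it in intron 5 (24.0 and 32.1), and another in intron 13, 36.5 kb away (19.3 and 24.0). The region in intron 5 was the highest-scoring of these in both lists.

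LAMB4, its neighbour on chromosome 7 and the least studied beta chain, had the second strongest of all member regions. Its intergenic summits at 108143028 and 108143038, 12672 bp upstream of the TSS, scored 364.8 and 544.9 (ranks 135 and 96). LAMC1, the common gamma chain, had 3 regions at 16.7, 19.1 and 47.9 kb, the closest in intron 1 of 27 with scores of 61.5 and 159.3. No summit was nearest to LAMB3, LAMA2, LAMA5, LAMB2 or LAMC3.

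**Figure D3:**
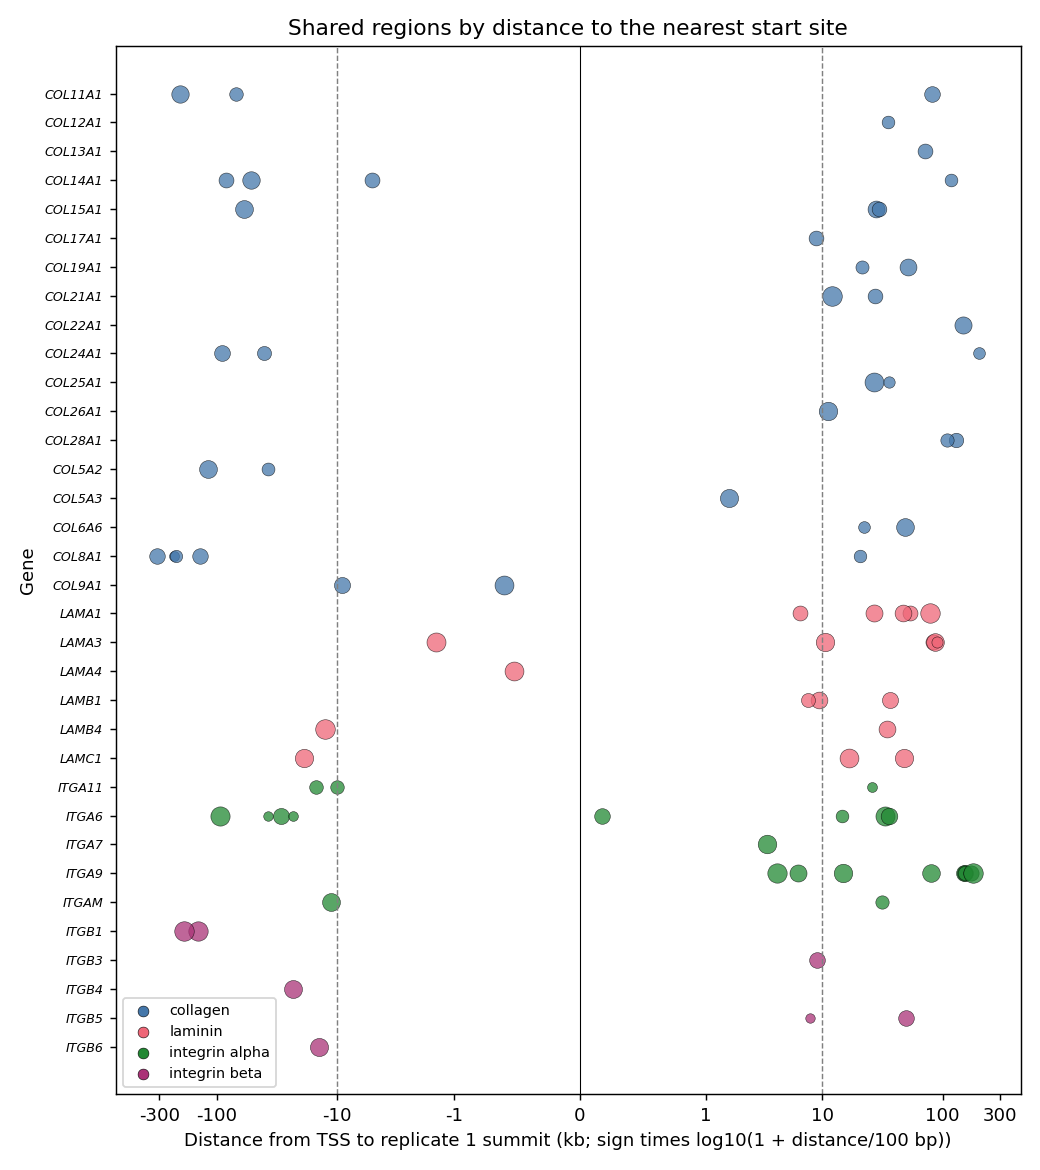
Shared regions (points) of 34 of the 35 member genes with one, by signed distance from the nearest TSS to the replicate 1 summit (x axis, kb, compressed on a log10 scale), coloured by family; larger points have a higher mean score percentile over both lists, and dashed lines mark 10 kb. Points within 10 kb number 16, and 56 of the 87 plotted lie after the TSS.

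Integrin alpha regions were concentrated at 2 genes, ITGA9 and ITGA6, which held 17 of the 23. ITGA9 pairs with ITGB1 and binds tenascin C and osteopontin. It had 9 regions, the most of any member, and 2 were in intron 1 of 27 near the TSS. The closer, with summits at 37456498 and 37456495 on chromosome 3, lay 4176 bp after the TSS and scored 165.1 and 219.9 (ranks 822 and 1062). The next, 6323 bp after the TSS, scored 27.6 and 34.7. The strongest ITGA9 region was inside the gene body, in exon 16 of 28 and 176945 bp after the TSS, with summits at 37629267 and 37629272 and scores of 228.9 and 478.7 (ranks 435 and 166).

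ITGA6 forms laminin receptors with ITGB1 and ITGB4. Its 8 regions stretched from 94.0 kb upstream to 35.7 kb after the TSS, 4 on each side. The promoter region, with summits at 172427609 and 172427616 on chromosome 2, lay 54 and 61 bp after the deposited TSS and scored 20.0 and 17.6, close to the median of all shared regions in replicate 1 and below it in replicate 2. Of the 7 others, 2 scored higher than the promoter in both lists and 5 scored lower in replicate 1. Among those 5, the regions 29.6 kb upstream and 35.7 kb after the TSS scored higher than the promoter in replicate 2, at 38.6 and 40.8. The rest of the 5 scored lower than it in both lists. The intergenic region 94.0 kb upstream scored 126.8 and 176.1, and one in intron 1 of 24, 33.3 kb after the TSS, scored 84.3 and 202.8. The lowest 2 of the 8 scored 3.91 and 8.35, and 5.76 and 5.55.

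ITGA7, a laminin receptor of muscle, had a single region in intron 1 of 24, 3415 bp after the TSS on chromosome 12, with summits at 55704487 and 55704535 and scores of 63.3 and 84.7. It lay in an L2 element, an old LINE repeat, and was the only region within 10 kb in any repeat. ITGA11, a collagen receptor, had 3 regions with scores of at most 15.8 in replicate 1 and 13.9 in replicate 2, and ITGAM, a subunit of leukocyte integrins, had 2, the stronger at 11.4 kb upstream with scores of 38.3 and 55.0. ITGA10 had an unpaired summit in replicate 2 and ITGAD had one in replicate 1. The other 11 alpha subunits were nearest to no summit: ITGA1, ITGA2, ITGA2B, ITGA3, ITGA4, ITGA5, ITGA8, ITGAE, ITGAL, ITGAV and ITGAX.

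Of the integrin beta subunits, ITGB3 and ITGB5, which both pair with ITGAV, had a region within 10 kb. ITGB3 has been linked to invasive melanoma. Within intron 1 of 14, 8985 bp after the TSS, its summits at 47262827 and 47262821 (chromosome 17) scored 14.1 and 28.0. The ITGB5 region in intron 1 of 14 on chromosome 3, 7891 bp after the TSS, scored 3.34 and 8.35, the lowest replicate 1 score of all 89 regions. A second ITGB5 region in intron 5 scored 12.1 and 34.7.

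ITGB1, the beta subunit with the most alpha partners, had no region nearer than 142.8 kb, yet both of its regions scored high. They were intergenic on chromosome 10, with scores of 163.5 and 245.0 at 142754 bp and 255.4 and 347.7 at 187816 bp upstream of the TSS. ITGB6, an epithelial subunit, had a region 14.3 kb upstream with scores of 38.4 and 75.9. Inside ITGB6, intron 9 of 12 held a stronger shared region, with scores of 74.0 and 118.1, that was given to PLA2R1. ITGB4, the subunit of hemidesmosomes, had one 23.3 kb upstream, inside an intron of SAP30BP, with scores of 46.3 and 49.3. No summit was nearest to ITGB2, ITGB7 or ITGB8. ITGA6 and its 2 beta partners were thus all nearest to shared regions, with the ITGA6 promoter the only one of their regions within 10 kb. The same held at any distance for 5 of the 8 beta subunits (62.5%), 42.7% of all members and 28.6% of all protein-coding genes.

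Naming by nearest TSS left out regions inside the members' own transcribed spans. Within the RefSeq spans of the 82 genes lay 103 shared summits, 62 given to the gene itself and 41 to another gene. A further 8 genes had a shared summit in their span and none by nearest TSS, namely COL4A2, COL4A3, COL4A4, COL27A1, LAMA2, ITGAE, ITGB2 and ITGB8. Counting both, 43 of 82 members (52.4%) had a shared region nearest to them or inside them, against a background of 33.3%. That background is not matched for gene length, and this count was not split by span. Inside the span alone it was 40 genes (48.8%, background 20.9%), with 35 of 51 (68.6%, background 54.9%) in the longest class and 5 of 23 (21.7%, background 19.3%) in the next. For members between 8.60 and 24.2 kb it was 0 of 8, against 7.17%.

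The strongest of these regions was in ITGB8, the subunit that with ITGAV activates latent TGF-beta. Within intron 12 of 13, its summits at 20408051 and 20408069 (chromosome 7) scored 413.0 and 567.9 (ranks 92 and 81), and the nearest TSS, 76289 bp away, was that of the non-coding LOC101927811. ITGB8 held 4 such regions, the next scoring 56.7 and 125.3 in intron 9. LAMB1 held a region in intron 24 of 33 with scores of 312.6 and 478.7 (ranks 209 and 166), given to DLD. This was far stronger than any of the 3 regions given to LAMB1 itself.

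COL4A2, a chain of the type IV collagen of basement membranes, held 5 regions in its introns 4 and 6 of 47, given to MIR8073 and COL4A2-AS2. The strongest in replicate 1 scored 138.3 and 164.3, and the strongest in replicate 2 scored 68.9 and 230.4. LAMC1 held 5 more regions given to its antisense gene LAMC1-AS1, with scores from 12.4 to 42.8 in replicate 1 and from 31.3 to 76.6 in replicate 2. ITGA9 held 6 more given to ITGA9-AS1, from 4.43 to 24.0 and from 3.55 to 78.5. In ITGB3, a region in intron 10 of 14 scored 77.6 and 204.9, above the one near its TSS. Altogether 13 of the 41 regions were given to an antisense gene of a member.

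**Figure D4:**
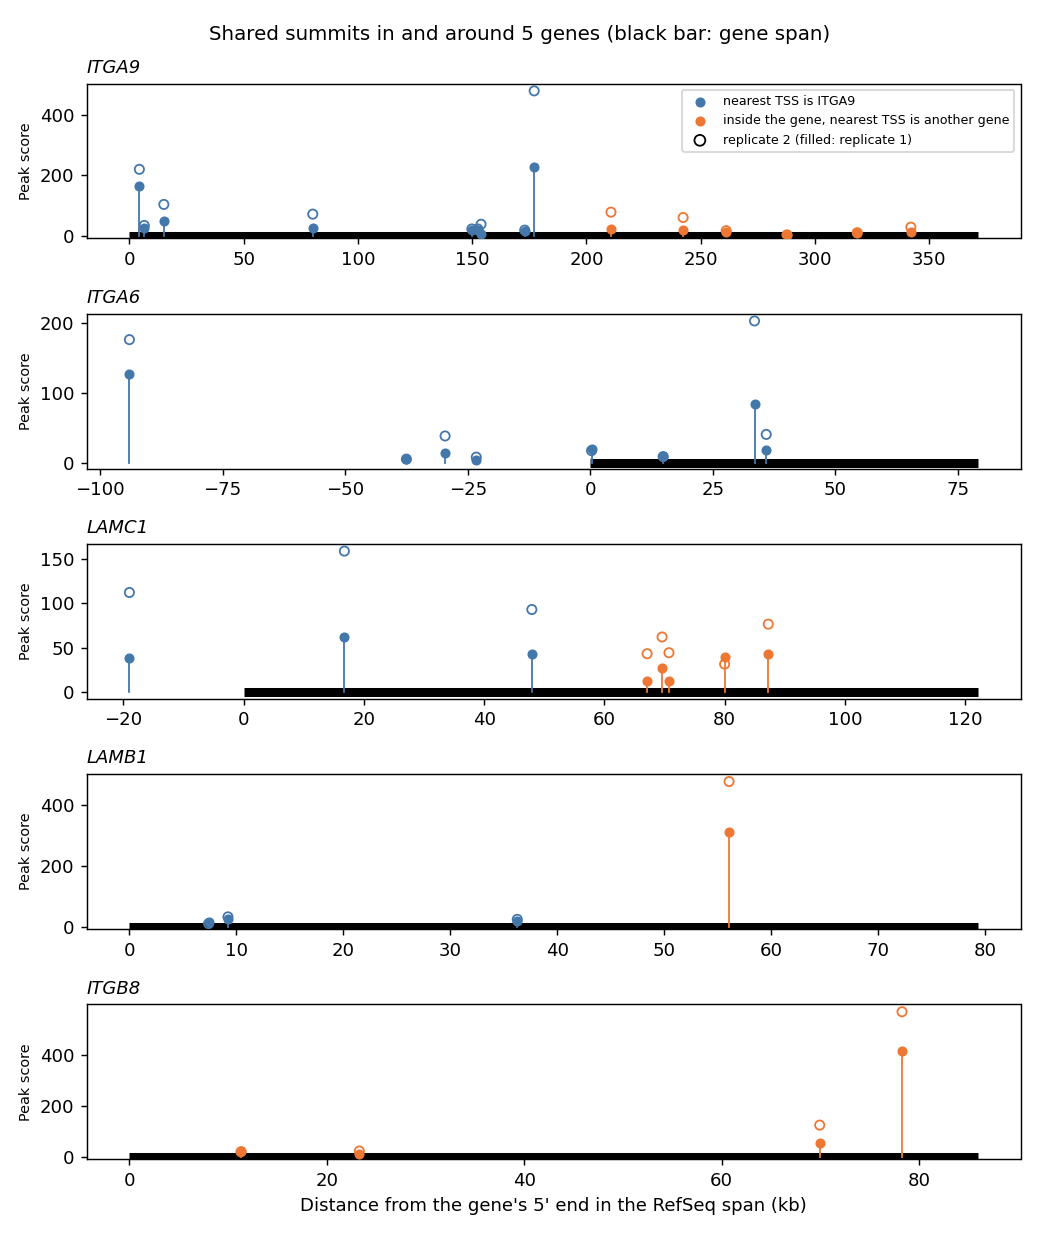
Deposited peak score (y axis, filled circles replicate 1, open circles replicate 2) of shared regions in and around 5 member genes, by distance in kb from the 5′ end of the gene span (x axis); the black bar is the span, blue points were given to the gene and orange points lie inside it but were given to another gene. The highest points of LAMB1 and ITGB8 are orange, with replicate 2 scores of 478.7 and 567.9.

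Per length, the families differed. The spans held 9.41 shared summits per Mb for all members and 7.35 per Mb for all protein-coding genes, where overlapping spans were each counted. Collagens had 5.89 per Mb (41 summits), laminins 14.9 (27), integrin alpha subunits 14.6 (24) and integrin beta subunits 20.4 (11 summits in 0.539 Mb). ITGA9 alone held 15 of the 24 summits of the alpha subunits. These densities describe 1 pair of libraries, and no test was run on them.

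The 89 regions lay mainly in introns. Introns held 58 (65.2%, against 39.7% of all shared regions), intergenic sequence 26 (29.2% against 53.2%), promoters 3 (3.37% against 2.52%) and exons 2 (2.25% against 1.00%). The members are long genes, with a median span of 90.5 kb, and the set of all shared regions is not matched for gene length. It also includes regions in satellites and regions nearest to non-coding genes. Whether intronic location is particular to these families was not tested. Of the intronic regions, 56 were in the gene itself, with 19 of these in intron 1, and 2 were in introns of DEPTOR or SAP30BP. Within 10 kb of the TSS lay 16 regions (18.0% against 16.7%), 5 upstream and 11 downstream. The regions were free of annotated repeats more often than all shared regions, with 75 outside repeats (84.3% against 58.3%). None was in a satellite, which held 16.6% of all shared regions, while 9 were in LTR elements (10.1% against 10.5%), 3 in LINEs (3.37% against 7.07%), 1 in a SINE and 1 in a simple repeat.

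The scores of the member regions were ordered alike in both lists, with a Spearman's rho of 0.882 over 89 regions, given as a description, and 0.852 over all shared regions. Their median score was 18.4 in replicate 1 and 28.0 in replicate 2, close to the 19.3 and 29.0 of all shared regions. In the upper tail, 6 regions ranked among the 1000 highest of both lists (6.74%, against 3.49% of all shared regions). These were single regions of COL21A1, LAMB4, LAMA1 and ITGA9 and both regions of ITGB1. Regions within 10 kb of a TSS had median scores of 22.0 and 33.2 and ran from 3.34 to 165.1 in replicate 1 and from 8.35 to 219.9 in replicate 2. The farther ones had medians of 18.4 and 27.0 and reached 454.9 and 632.0.

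**Figure D5:**
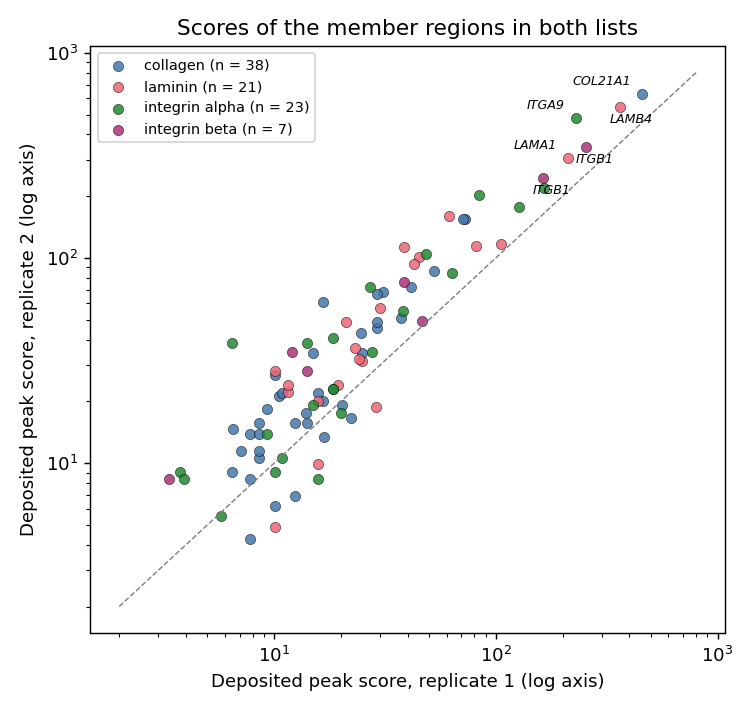
Deposited peak scores of the 89 member regions in replicate 1 (x axis) and replicate 2 (y axis), both on log axes, coloured by family, with the 6 highest labelled; the dashed line marks equal scores. The COL21A1 region is highest in both lists, at 454.9 and 632.0.

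A partner in the other list was found for 74.2% of the member summits in replicate 1 (89 of 120, interval 65.7% to 81.2%) and 63.6% in replicate 2 (89 of 140, 55.3% to 71.1%). Over all summits it was 69.9% and 56.1%, and both intervals include those values. Unpaired member summits scored lower, with medians of 6.40 in replicate 1 and 7.62 in replicate 2, against 18.4 and 28.0 for the paired. The same held over all summits, with medians of 5.87 and 6.98 for the unpaired against 19.3 and 29.0 for the paired. Just inside the limit of 200 bp were pairs 182 bp apart at ITGA6 and 175 bp apart at COL8A1, and just outside were summits 205 bp apart at ITGA9 and 212 bp apart at COL9A1. Just inside 10 kb lay the regions of LAMB1 at 9412 bp and COL9A1 at 9226 bp, and just outside those of ITGA11 at 10064 bp and LAMA3 at 10608 bp.

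Other genes of matrix and adhesion were counted in the same way from 4 lists holding 76 genes. For 13 of them a shared region was at most 10 kb from the TSS (17.1%, background 10.1%). That background is not matched for gene length, and these genes had a median span of 47.6 kb, against 24.2 kb for all protein-coding genes. The list of integrin adaptors, which also holds kinases such as SRC, had 6 of 24 (25%): FERMT3, LIMS1, ACTN4, SRC, PARVB and TLN2. The strongest was near FERMT3, the kindlin of blood cells, with scores of 411.3 and 512.7, in sequence 9906 bp upstream of the TSS within an intron of STIP1. LIMS1, which binds integrin-linked kinase, had 4 regions within 10 kb, the strongest scoring 135.4 and 276.8 at 2128 bp upstream, and SRC, a kinase activated at adhesions, had a promoter region 929 bp upstream with scores of 54.4 and 77.0.

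Matrix glycoproteins and proteoglycans had 4 of 24 (16.7%): NID1, FBLN2, DCN and LUM. NID1, which links laminin to type IV collagen, had the strongest, 6723 bp after the TSS in intron 1 of 19, with scores of 98.9 and 170.0. Collagen-processing enzymes had 3 of 18 (16.7%): LOXL1, LOXL4 and COLGALT2. Of the 10 other receptors of collagen or laminin none had one, while DAG1 and DDR2 had shared regions farther away. The share of these lists was close to that of the 82 members (15.9%), and no test between them was run.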

How the data were processed

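TBX3-HA ChIP-seq of 501mel cells was analysed from 1 list of annotated summits for each of the 2 ChIP samples. The 2 input samples were not analysed here. Groups and replicate numbers came from sample titles. Each summit carries a deposited score whose scale is not stated. Per the file headers, HOMER annotatePeaks.pl assigned the nearest TSS and annotation against hg38, and distances are in bp. Bowtie2 2.3.5 and MACS2 2.1.2 are among the tools in the submitters' processing notes. Their control and threshold are not given in the sources used here.

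Summits were paired when mutually nearest and within 200 bp; gene and distance came from replicate 1. Protein-coding genes and spans came from RefSeq (GRCh38.p14), which matched 12420 of 12469 gene identifiers. Python 3.11.15 with pandas 2.3.3 and SciPy 1.17.1 was used, and pairing was tested on simulated data. Members and lists were chosen with earlier results of these data known. Named were members with a region within 10 kb, 10 others by rank sum and 3 by number of regions, and listed partner genes within 10 kb. DAG1, DDR2, COL11A2, ITGA11 and genes with regions inside their span were given values after these were seen. No chance test was run. Alternatives covered pairing distance, score limits, satellites, TSS distance, gene span and single replicates; those for rho were chosen after seeing the data. Values of 1 member are not reported here, though its regions stand in the counts.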

Additional observations from a re-analysis of the deposited data

How the results depend on the processing

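Of 68 alternative values, 43 stayed within 1.5 times the count reported, or within the interval of a share or of rho (0.813 to 0.927), and 25 did not. Some of the 43 could not move and say nothing about stability. Naming the gene from replicate 2 cannot change the shares with a partner. Leaving out satellites removed no member region, since none lay in one, so the 89 regions, both shares and rho were unchanged. With summits at the same base, the genes within 10 kb, genes at any distance, regions, shares with a partner (0% in both lists) and partner-list genes all fell to 0, because that setting leaves few pairs in the genome. Within 50 bp, 8 members had a region within 10 kb (background 8.09%), and the shares with a partner were 53.3% and 45.7%. With scores at or above the median there were 57 regions, and the replicate 1 share was 85.1%. With the 5000 highest scores there were 5 members within 10 kb (background 2.53%), 13 at any distance, 17 regions, shares of 94.4% and 77.3%, and 6 partner-list genes. Limits of 1, 5 and 50 kb gave 3, 7 and 30 members and 3, 6 and 30 partner-list genes, with backgrounds of 2.99%, 6.04% and 22.9%. Inside the gene span there were 40 members and 24 partner-list genes (background 20.9%). The settings themselves change how many regions or genes can count. Replicate 2 alone gave 14 members within 10 kb (background 15.51%), 41 at any distance (38.42%) and 19 partner-list genes, and replicate 1 alone gave 17 (13.35%), 37 (34.14%) and 16. The member share within 10 kb with replicate 2 alone is thus near the background. No paired analysis was possible because the input samples with the same replicate numbers were not analysed here and no result comes from a test between groups. Unknown read depth limits any statement about an absent summit.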
